A study of Mus musculus with 6 samples.

Results

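Integrins are the main receptors by which cells hold on to the extracellular matrix. Each receptor is a heterodimer of an alpha and a beta subunit, the alpha subunit setting most of the ligand choice, and the beta1 subunit pairs with the largest number of alpha subunits. Integrins with alpha4 or alpha9 also bind Vcam1, an immunoglobulin-type adhesion molecule on the surface of neighbouring cells. In the embryonic mouse heart, alpha4 is known from the epicardium and Vcam1 from the myocardium beneath it, and embryos that lack either gene fail to keep an epicardial covering.

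The 10 genes described here are 8 integrin alpha subunits (Itga1, Itga3, Itga4, Itga5, Itga6, Itga7, Itga9 and Itgav), the beta subunit Itgb1, and Vcam1. They were chosen by symbol among the 23284 genes of the deposited table, with their values in both groups already known, so the differences below are descriptions and not tests. RNA-seq was performed on heart ventricles of embryos at E9.5, 3 WT and 3 KD, with C57BL/6 given as the strain. All 6 were chimeras made by tetraploid complementation from ES cells named as B6J, a short form of C57BL/6 J, in which the tissues of the embryo itself come from the ES cells, so WT embryos share the procedure with KD embryos. KD embryos carry the genotype Tbx5ua -/-: copies of a polyadenylation signal were placed in the second exon of both alleles, by genome editing in clonal ES cells, to stop transcription of this lncRNA, which runs in the opposite direction from the promoter region of Tbx5. The labels do not say which ES cell clone gave which embryo. Libraries were made by Smart-Seq2, which amplifies full-length cDNA and does not mark the strand. The comparison asks which genes differ in ventricles when Tbx5ua is reduced.

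The table holds 1 FPKM value (mapped fragments scaled to transcript length and to the size of the library) for each group, pooled by the authors over its 3 embryos. No SD can be given, and from these group values whether a difference exceeds the spread between embryos could not be tested. The authors' own test results were not used. Depth is unknown, since the table gives no counts. Ratios are KD over WT without a pseudocount. A gene was set against the rest where the mean of its 2 group values was at least 1 FPKM and both values were above 0, which held for 11309 genes, with a median log2 ratio of 0.00 and quartiles of -0.15 and 0.15. The libraries carry the transcripts of heart muscle. The 10 cardiomyocyte markers summed to 30595 FPKM in WT against 31540.3 FPKM in KD, led by Myl7 with 13643 and 12907 FPKM. The level of Tbx5ua was not analysed here, so the group labels were not checked against it.

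Of the 10 genes, 9 passed the minimum and Itga7 did not. Only Itga4 was at least 1.5-fold higher in KD and only Itga9 was at least 1.5-fold lower, while the other 7 lay between. Of all genes past the minimum, 3.89% were at least 1.5-fold higher and 2.67% at least 1.5-fold lower. Both genes lie at low levels, where ratios scatter more widely. Among the 3654 genes with a mean of 1 to 5 FPKM, a range set after the values had been seen, the shares were 8.98% and 6.29%, and 1 of the 4 genes of that range here was past the threshold in each direction. The median log2 ratio over the 9 genes was -0.08. KD was above WT in 3 of them and below in 6, against 5739 above and 5570 below over all genes past the minimum.

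**Figure D1:**
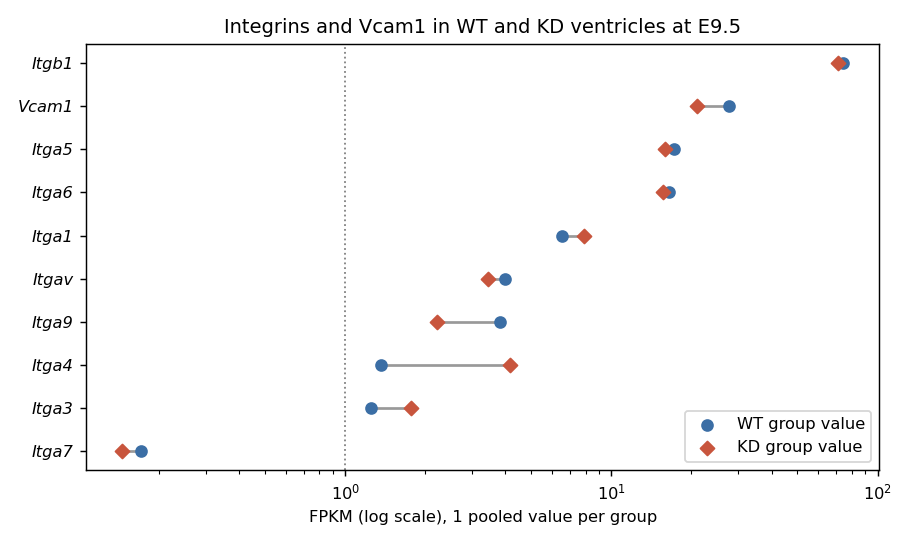
Group values of the 10 genes in FPKM on a log axis, with circles for WT, diamonds for KD and a dotted line at 1 FPKM. Itga4 goes from 1.37 FPKM in WT to 4.15 FPKM in KD and passes Itga9 and Itgav, while the 4 highest genes keep their order.

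Itga4 encodes the alpha4 subunit, which pairs with beta1 or beta7 and binds Vcam1 and an alternatively spliced part of fibronectin. Its group value was 1.37 FPKM in WT against 4.15 FPKM in KD, which is 3.04-fold higher (log2 ratio 1.60). The KD value thus stood 2.78 FPKM above the WT value, and only 0.212% of genes past the minimum had a higher ratio. Within the range of 1 to 5 FPKM, 0.493% of genes had a higher ratio. In order of level Itga4 was 8th of the 10 genes in WT and 6th in KD.

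Itga1, Itga4 and Itga7 each share a locus in the table with another gene, and the exon overlap with that gene was the largest for Itga4. The locus of Itga4, chr2:79255426-79428988 on mm10, is the same as that of Cerkl, a ceramide kinase-like gene. In the GENCODE M21 annotation of GRCm38, Itga4 lies on the plus strand and Cerkl on the minus strand, and the genes overlap tail to tail from 79330543 to 79333123. Their exons share 1124 bases, or 8.04% of the exon bases of Itga4, over which reads of unstranded libraries cannot be told apart. Cerkl was listed at 0.144 FPKM in WT against 0.602 FPKM in KD, below the minimum in mean, and stood at 0.105 times the level of Itga4 in WT and 0.145 times in KD. How far reads of one gene were counted for the other was not tested.

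The 250 bases before the start of Itga4 (RefSeq, GRCm38.p6, chr2:79255176-79255425, plus strand) are shown with those before Itgb1 (chr8:128685404-128685653, plus strand), since their products form the alpha4 beta1 receptor and only the former differed past 1.5-fold. Capitals mark matches, on either strand, to GGTGTG (the core of the T-box half-site), GGGCGG (the GC box), GGAATG (TEAD) and AGATAA (the site of GATA factors). No marked matches overlap.
Itga4: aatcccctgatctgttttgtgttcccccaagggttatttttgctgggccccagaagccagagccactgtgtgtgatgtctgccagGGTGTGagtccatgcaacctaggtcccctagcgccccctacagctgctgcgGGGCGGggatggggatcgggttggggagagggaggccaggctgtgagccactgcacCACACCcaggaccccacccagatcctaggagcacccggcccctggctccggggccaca
Itgb1: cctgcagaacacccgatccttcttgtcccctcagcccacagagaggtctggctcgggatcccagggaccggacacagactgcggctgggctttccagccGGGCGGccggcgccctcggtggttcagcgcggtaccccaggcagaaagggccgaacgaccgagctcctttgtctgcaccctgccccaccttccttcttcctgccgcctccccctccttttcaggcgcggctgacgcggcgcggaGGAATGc

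In the Itga4 window, GGTGTG matched at 165 bases before the start on the gene's own strand and at 58 bases on the other strand, and GGGCGG matched at 114 bases. In the Itgb1 window, GGGCGG matched at 151 bases and GGAATG at 7 bases before the start. Of 32851 windows of the same length in the RefSeq table, 16.3% held GGTGTG, 32.7% GGGCGG, 12.6% GGAATG and 9.99% AGATAA. The table held 8 windows for 7 of the 10 genes, and not Itga6, Itga7 or Vcam1. Of the 8 windows, 2 held GGTGTG (Itga4 and Itgav), 5 held GGGCGG, 1 held GGAATG and 0 held AGATAA. A match is a description of the letters only.

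Itga9 encodes the alpha9 subunit, the closest relative of alpha4 among the integrins and also a partner of beta1 that binds Vcam1. It had 3.83 FPKM in WT against 2.21 FPKM in KD (chr9:118606709-118901003), 1.73-fold lower in KD with a log2 ratio of -0.79. Of the genes past the minimum 1.11% had a lower ratio, and 2.46% of those between 1 and 5 FPKM. Itga9 therefore stood on the other side of the distribution from Itga4. In WT the level of Itga9 was 2.80 times that of Itga4, and in KD the level of Itga4 was 1.88 times that of Itga9, so the order of these related subunits was inverted between the groups. Their sum was 5.20 FPKM in WT against 6.36 FPKM in KD. An antisense gene, Gm2415, overlaps the 3′ part of Itga9 in the annotation and has no row of its own in the table.

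Vcam1, the ligand of both, was the second highest of the 10 genes in each group. It had 27.6 FPKM in WT against 20.9 FPKM in KD (chr3:116110020-116129688, minus strand), 1.32-fold lower in KD with a log2 ratio of -0.40. This is inside the 1.5-fold limits, but 6.12% of genes past the minimum had a lower ratio, and the difference, KD minus WT, of -6.67 FPKM was the largest of the 10 genes on the FPKM scale. The level of Vcam1 was 20.2 times that of Itga4 in WT and 5.05 times in KD. The antisense gene Gm43109 overlaps the start of Vcam1 in the annotation, without a row in the table.

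Itgb1, the common beta subunit, was the highest of the 10 genes and differed little. It had 74.4 FPKM in WT against 71.0 FPKM in KD (chr8:128685654-128733579), a log2 ratio of -0.07. Itgb1 made up 90.7% of the summed FPKM of the 8 beta subunits in WT and 90.9% in KD. Its level was 54.5 times that of Itga4 in WT and 17.1 times in KD.

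The alpha subunits with the highest levels were those for fibronectin and laminin. Itga5, the alpha subunit of the classical fibronectin receptor, had 17.2 FPKM in WT against 15.9 FPKM in KD (log2 ratio -0.11). Itga6, a laminin receptor subunit, had 16.5 and 15.6 FPKM (log2 ratio -0.08). They stood at nearly the same level in each group, with Itga5 at 1.04 times Itga6 in WT and 1.02 times in KD. Itgav, whose product binds vitronectin and other RGD-containing proteins and can activate latent TGF-beta, had 3.996 FPKM in WT against 3.44 FPKM in KD (log2 ratio -0.22). These 3 subunits were lower in KD by less than 1.5-fold.

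Itga1 and Itga3 were higher in KD by less than 1.5-fold. Itga1, a collagen receptor subunit, had 6.50 FPKM in WT against 7.92 FPKM in KD, 1.22-fold higher, and 13.5% of genes past the minimum had a higher ratio. Its locus is shared in the table with Pelo, a ribosome rescue factor gene that lies within Itga1 on the same strand, and that had 10.6 and 12.0 FPKM, a ratio of 1.13. The annotated exons of Itga1 and Pelo share 0 bases. Itga3, another laminin receptor subunit, had 1.252 FPKM in WT against 1.76 FPKM in KD, 1.41-fold higher, with 5.74% of genes above it, or 12.4% of those between 1 and 5 FPKM. Itga7, the laminin receptor subunit of mature muscle, was listed at 0.171 FPKM in WT against 0.145 FPKM in KD, below the minimum. It shares its locus in the table with Mettl7b, at 0.278 and 0.133 FPKM, and 9 bases of annotated exon.

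**Figure D2:**
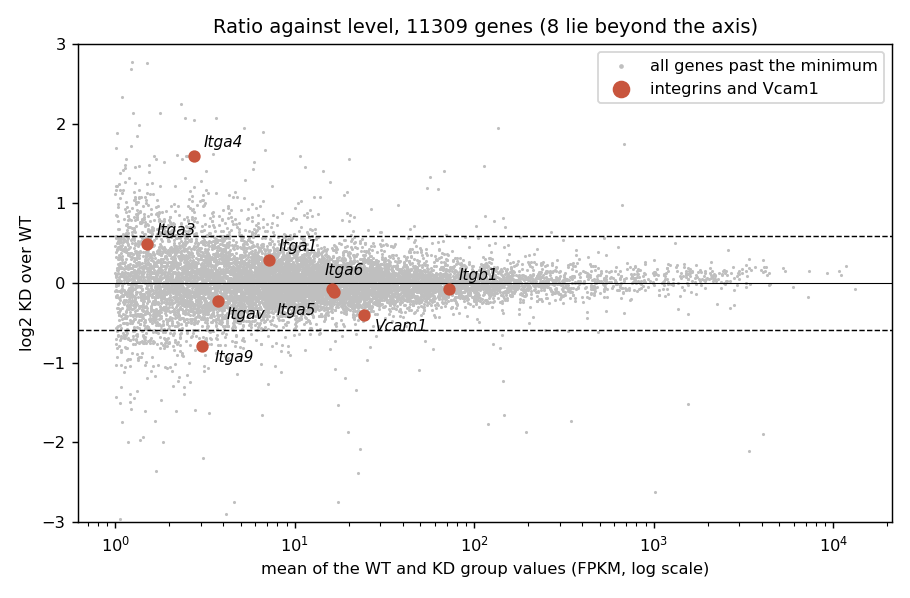
Log2 KD over WT against the mean of the group values for 11309 genes (grey) and the 9 genes of the set past the minimum (red), with dashed lines at 1.5-fold. Itga4 lies above the upper line, Itga9 below the lower line and the other 7 genes between them, and 8 genes fall beyond the axis limits.

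The rest of the integrin family was mostly at low levels. The table has rows for all 26 subunit genes searched, 18 alpha and 8 beta, and 11 passed the minimum. Of these, 5 were higher and 6 lower in KD. With the group values scaled to the same sum these counts were 4 and 7, as Itgb3 changes sign. Itga4 was past 1.5-fold upwards and Itga9 downwards, with 0 others in either direction, against 3.89% and 2.67% of all genes past the minimum. The others past the minimum were Itga2b, the platelet alpha subunit, with 2.86 FPKM in WT against 4.26 FPKM in KD (1.49-fold higher, just inside the limit), its partner Itgb3 with 2.33 and 2.34 FPKM, and Itgb5, a partner of alphav, with 2.99 and 2.87 FPKM. Itga8, the nephronectin receptor subunit, was below the minimum at 0.174 FPKM in WT against 1.07 FPKM in KD, and was named after its values had been seen. The leukocyte subunit gene Itgam was listed at 0 in both groups and Itgax was listed at 0 in KD.

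The summed FPKM of the 18 alpha subunits was 54.5 in WT and 56.9 in KD, and that of the 8 beta subunits was 82.1 and 78.1. Within the alpha sum the share of Itga4 was 2.50% in WT and 7.29% in KD, and that of Itga9 was 7.03% and 3.89%. Itga5 held 31.5% and 28.0%, and Itga6 30.3% and 27.5%. These shares are of pooled transcript levels over all cells of the ventricle, and in bulk tissue fewer cells of a type and less RNA per cell cannot be told apart.

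**Figure D3:**
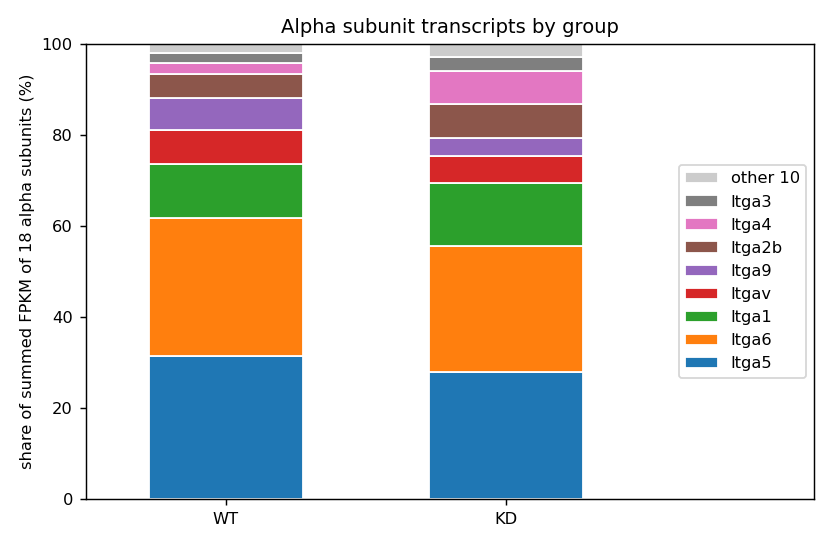
Shares of the summed FPKM of 18 alpha subunits in the WT and KD group values, as stacked bars from 0 to 100%. Itga5 and Itga6 make up more than any other subunit in both bars, the share of Itga4 is 2.50% in WT and 7.29% in KD, and that of Itga9 is 7.03% and 3.89%.

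Matrix ligands of the integrins were also examined. Of 26 genes, 21 passed the minimum, 3 were at least 1.5-fold higher in KD and 0 lower, and the median log2 ratio was 0.14. The shares over all genes past the minimum were 3.89% and 2.67%. All 3 lay between 1 and 5 FPKM, where 8.98% of all genes were higher and 6.29% lower. Npnt, Postn and Lamb2 lay in the same range and were inside the 1.5-fold limits. The 3 higher genes were Col1a1 (1.76 FPKM in WT against 4.64 FPKM in KD, 2.64-fold), a fibrillar collagen chain, Col6a1 (0.791 and 1.74 FPKM, 2.20-fold), a chain of a microfibrillar collagen, and Lama5 (1.01 and 1.52 FPKM, 1.5-fold), a laminin chain. Col6a1 passed the minimum through its KD value. Tnc, with 1.14 FPKM in WT against 0.362 FPKM in KD, was below the minimum in mean and so was not counted as lower. Fn1, the fibronectin gene and thus the ligand of alpha5 beta1, had 59.1 FPKM in WT against 53.2 FPKM in KD, and Cyr61, a matricellular ligand, had 66.0 and 73.3 FPKM. These 2 were the highest of the list, and both lay inside the 1.5-fold limits. Lama5 fell under 1.5-fold with scaling, centring or a pseudocount, which left 2 genes.

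Genes for proteins that act at integrin tails inside the cell were counted in the same way. Of 38 adaptor and signalling genes, 35 passed the minimum, 1 was at least 1.5-fold higher in KD and 1 lower, and the median log2 ratio was 0.03. The shares over all genes past the minimum were 3.89% higher and 2.67% lower. Both genes lay between 1 and 5 FPKM, where the shares were 8.98% and 6.29%. Whether the adaptors differ from all genes was not tested. The higher one was Fyn, a Src-family kinase, with 3.05 FPKM in WT against 4.61 FPKM in KD (1.51-fold). The lower one was Lims2, which encodes the PINCH2 adaptor of the Ilk complex, with 2.35 and 1.45 FPKM (1.62-fold lower). Ilk, the integrin-linked kinase, and Rsu1, which binds the same complex, had the highest levels, with 170.3 and 167.6 FPKM for Ilk and 113 and 110.2 FPKM for Rsu1. Fyn fell under 1.5-fold with scaling or a pseudocount, and Lims2 with a pseudocount of 1 FPKM.

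Of the 8 membrane partners of integrins, all 8 had a higher value in KD than in WT, 7 of them by less than 1.5-fold (7 of 8 higher with scaling to the same sum, as Cd47 changes sign), and the median log2 ratio was 0.11. Of all genes past the minimum, 5739 of 11309 had a higher value in KD. Cd82, a tetraspanin, was 1.83-fold higher, with 2.44 FPKM in WT against 4.48 FPKM in KD. It was the only 1 of the 8 past 1.5-fold, against 3.89% of all genes higher and 2.67% lower. Cd82 lay between 1 and 5 FPKM, where these shares were 8.98% and 6.29%. Bsg (basigin) had 750.5 and 808.6 FPKM and the tetraspanin gene Cd81 280.5 and 308.4 FPKM. Of 12 other adhesion molecules of the immunoglobulin type, 10 passed the minimum, 1 was at least 1.5-fold higher in KD and 0 lower, against 3.89% and 2.67% of all genes and 8.98% and 6.29% of those between 1 and 5 FPKM, where this gene lay. It was Icam1, a leukocyte adhesion molecule of activated endothelium, with 1.22 FPKM in WT against 1.97 FPKM in KD (1.61-fold), and under 1.5-fold with a pseudocount of 1 FPKM. Icam2 had 68.9 and 78.5 FPKM and F11r 26.4 and 24.7 FPKM.

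Most markers of the epicardium and of megakaryocytes were also higher in KD, as Itga4 was. Of the 9 epicardial markers 8 passed the minimum, of which 6 were at least 1.5-fold higher in KD and 0 lower. The shares over all genes past the minimum were 3.89% and 2.67%. Aldh1a2, with 0.872 FPKM in WT against 1.74 FPKM in KD, passed the minimum through its KD value. The median log2 ratio of the epicardial markers was 1.05. The list summed to 163 FPKM in WT against 217 FPKM in KD, of which Krt19, its highest gene, gave 111 and 111 FPKM. Upk3b had 7.80 FPKM in WT against 20.7 FPKM in KD (2.66-fold), Lrrn4 4.51 and 10.5 FPKM (2.32-fold), and Msln was near 0 in both groups, at 0.0483 and 0.0683 FPKM. Of the 10 megakaryocyte markers, which include Itga2b and Itgb3, 9 passed the minimum, 6 were at least 1.5-fold higher and 0 lower. Except for Pf4, the higher ones lay between 1 and 5 FPKM, where 8.98% of all genes were higher and 6.29% lower. Gp9, with 0.804 FPKM in WT against 3.81 FPKM in KD, passed the minimum through its KD value. The median log2 ratio of the megakaryocyte markers was 0.88, and all 10 summed to 52.7 FPKM in WT against 114 FPKM in KD. Pf4, the highest, had 38.5 and 86.9 FPKM. With a pseudocount of 1 FPKM, 5 epicardial and 4 megakaryocyte markers were at least 1.5-fold higher. The part of these cells in the Itga4 value was not tested.

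In the other marker lists Cldn5, Pdgfra and Dcn were 2.44- to 3.85-fold higher in KD and Tagln was lower. Over all genes past the minimum, 3.89% were at least 1.5-fold higher and 2.67% lower. Of the 9 endothelial and endocardial markers, all past the minimum, 1 was at least 1.5-fold higher in KD (Cldn5, 2.44-fold) and 0 lower. KD was above WT in 6 of them and below in 3, with a median log2 ratio of 0.11. They summed to 139 and 157 FPKM, led by Emcn with 43.1 and 57.4 FPKM. Of the 10 cardiomyocyte markers 0 were past 1.5-fold in either direction. The erythroid list, of which 5 of 6 genes had a row, summed to 11438 FPKM in WT against 11518 FPKM in KD, led by Hba-x in WT (4401 and 4318 FPKM) and by Hbb-y in KD (4138 and 4453 FPKM), with 0 genes past 1.5-fold. Of 9 macrophage markers 0 passed the minimum, with a sum of 1.89 FPKM in WT against 0.947 FPKM in KD, Cd68 being the highest in WT (0.70 and 0.195 FPKM) and C1qb in KD (0.601 and 0.450 FPKM). Of the 6 mesenchymal and smooth muscle markers 5 passed the minimum, Pdgfra (2.86-fold) and Dcn (3.85-fold) being at least 1.5-fold higher in KD and Tagln 1.52-fold lower. The median log2 ratio was 0.06, with KD above WT in 3 and below in 2. Pdgfra, with 0.969 FPKM in WT against 2.78 FPKM in KD, passed the minimum through its KD value. Its mean lay between 1 and 5 FPKM, where 8.98% of all genes were higher and 6.29% lower. The sum of the 6 markers, led by Acta2 with 3045 and 2512 FPKM, was 3450.0 and 2788 FPKM. Of the 5 hepatic and yolk sac markers 0 passed the minimum, Ttr being the highest at 0.425 and 0.790 FPKM, with Alb and Fgb listed at 0 in both groups. Whether these cells have a part in the values of the integrins was not tested.

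**Figure D4:**
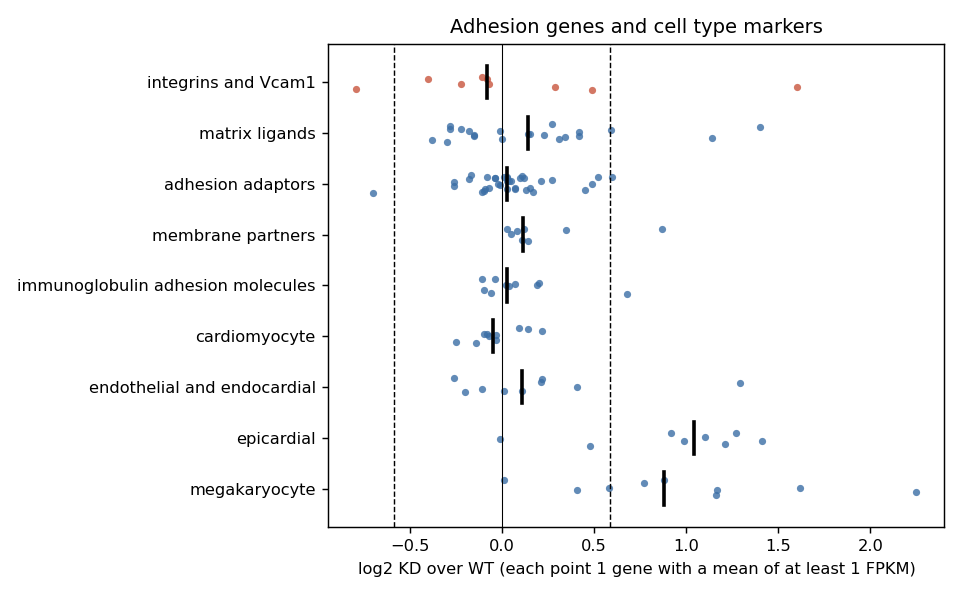
Log2 KD over WT of each gene with a mean of at least 1 FPKM in the adhesion and marker lists, as points with the median of the list as a black bar and dashed lines at 1.5-fold. Medians of the 5 adhesion lists drawn, the integrins and Vcam1 included, lie between -0.08 and 0.14, while those of the epicardial and megakaryocyte markers are 1.05 and 0.88.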

How the data were processed

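Single-end Smart-Seq2 RNA-seq of 3 WT and 3 KD ventricles was analysed from 1 table. Per the labels, the authors used TopHat, Bowtie2 and Cuffdiff with build mm10, and versions and annotation are not given in the sources used here. The deposited FPKM values are 1 per group, pooled over embryos by the authors. The table names its second group KO, taken as KD. The authors' fold changes, test statistics, p-values, q-values and calls are also in the table and were not used. The table has 0 other columns of per-sample values. Starts were given with 1 added. 57 genes with 1 group at 0 and a mean of at least 1 FPKM were left out of ratios. 2 genes with too many reads for Cuffdiff are listed at 0, as is 1 of 79 ribosomal protein genes, so a 0 is reported only as listed.

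The 10 genes and the gene lists were chosen with earlier results of these data known. Named genes were all 10, other subunits past the minimum, the 2 highest and all 1.5-fold different genes of each adhesion list, and the highest of each marker list; others were named after their values had been seen. Lists were counted without a set test. The ratio and count steps were tested on simulated data, with known folds put on the WT levels without added spread. That checks the code and not the differences reported here. Alternatives were other folds, minimums, pseudocounts, centring, scaling, and leaving out shared loci. Python 3.11.15, pandas 2.3.3, NumPy 2.4.6 and Matplotlib 3.10.9 were used.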

Additional observations from a re-analysis of the deposited data

How the results depend on the processing

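No paired analysis was possible because each group has 1 pooled value, and for this reason no embryo could be left out. With a lower threshold of 0.32 on the log2 scale, 1302 genes were higher and 1007 lower, with 2 of the 9 genes described here higher (Itga3 and Itga4) and 2 lower (Itga9 and Vcam1). With 2-fold, 117 genes were higher and 80 lower, Itga4 among the former and 0 of the 9 among the latter. Without a minimum the counts at 1.5-fold were 1850 and 1471 of 15739 genes, with 1 of the 10 genes described here in each direction. With a minimum mean of 5 FPKM the counts were 112 and 72 of 7655 genes. Of the genes described here 0 of 5 were then past 1.5-fold in either direction, since Itga4 and Itga9 lie below that minimum. With a pseudocount of 1 FPKM the counts were 233 and 155 of 11366 genes, and Itga4 (log2 ratio 1.12) and Itga9 (-0.59) stayed past the threshold. Without shared loci 357 of 9202 genes were higher and 223 lower, with 0 of 7 genes described here higher, since Itga4 is left out with Cerkl, and 1 lower (Itga9). Of the 40 rounded log2 ratios of single genes described here under other pseudocounts, centring and scaling, 27 moved and 0 changed sign. The count of signs is no check, since a pseudocount added to both groups cannot change a sign. Centring and scaling lowered all log2 ratios slightly. The smallest positive one, that of Itga1, went from 0.29 to 0.28 with centring and 0.26 with scaling. The unknown depth and the lack of values per embryo limit every comparison.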

Other observations

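Matrix receptors other than integrins were listed after the values had been seen. Of 15 genes, 14 passed the minimum, 2 were at least 1.5-fold higher in KD and 0 lower, against 3.89% and 2.67% of all genes past the minimum, and the median log2 ratio was 0.09. Sdc4, a syndecan of focal adhesions, had 9.32 FPKM in WT against 14.3 FPKM in KD (1.53-fold). Lyve1, a hyaluronan receptor, had 1.73 and 2.92 FPKM (1.69-fold), and lay between 1 and 5 FPKM, where 8.98% of all genes were higher and 6.29% lower. Dag1, the dystroglycan gene and a laminin receptor of muscle, had 32.5 FPKM in WT against 27.1 FPKM in KD. Cd44, another hyaluronan receptor, had 9.90 and 7.17 FPKM. Ddr1, a collagen receptor kinase, had 23.1 and 24.1 FPKM. These 3 lay inside the 1.5-fold limits, as did Gpc3, the highest of the list, with 84.8 and 101.6 FPKM. With a pseudocount of 1 FPKM, 0 of the 14 were past 1.5-fold, and with scaling to the same sum 1, Gpc6, was lower.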
